A study of Mus musculus with 4 samples.

Results

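The genes examined here encode 8 inhibitory checkpoint molecules: the receptors PD-1 (Pdcd1), LAG-3 (Lag3), TIM-3 (Havcr2), CTLA-4 (Ctla4), TIGIT (Tigit), BTLA (Btla) and CD160 (Cd160), and the ectonucleotidase CD39 (Entpd1). They were taken by name from a written list, by a rule that uses no measured value, although earlier results of these data were known when the list was drawn up, and 8 of 8 were found among the 24421 gene symbols counted. RNA was measured in whole J558 tumours, a mouse plasmacytoma (a tumour of antibody-secreting cells) grown by subcutaneous injection into the right flank of female BALB/c mice. Vehicle-treated allografts came from mice given 0.5% methylcellulose by mouth, and TAK-931-treated allografts from mice dosed orally with TAK-931, an inhibitor of the replication kinase CDC7, at 60 mg/kg once a day, all taken at day 6. Each group had 2 libraries, each from the tumour of 1 mouse (Vehicle-1, Vehicle-2, TAK-931-1 and TAK-931-2), and the age of the mice was not given in the labels. All tumours were of 1 cell line in hosts with their own immune system, so every library mixed tumour RNA with RNA of host cells.

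Inhibitory receptors reach the surface of activated T cells and NK cells and restrain them when a ligand on a tumour cell or an antigen-presenting cell is bound. PD-1 and BTLA do so by recruiting the phosphatases SHP-1 and SHP-2, and CTLA-4 competes with the activating receptor CD28 for CD80 and CD86. LAG-3 binds MHC class II, TIM-3 is found on T cells and also on myeloid cells, TIGIT competes with CD226 for the poliovirus receptor, and BTLA and CD160 both bind HVEM, the product of Tnfrsf14. CD39 is an enzyme that degrades extracellular ATP towards AMP, from which CD73 (Nt5e) makes adenosine, an inhibitor of T cells. T cells that meet antigen for long periods carry several of these molecules at once, a state called exhaustion.

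Of the 8 genes, 6 (Pdcd1, Lag3, Havcr2, Ctla4, Btla and Cd160) had higher levels in both TAK-931-treated allografts than in either vehicle-treated allograft. Tigit overlapped between the groups and Entpd1 was lower in both TAK-931-treated allografts. Of all 13669 genes tested, 30% stood above vehicle in both TAK-931-treated libraries and 32.7% were lower in both. In edgeR's quasi-likelihood test 5 of the 8 genes had an unadjusted p under 0.05, all higher with TAK-931 (Pdcd1, Lag3, Havcr2, Ctla4 and Btla), against 11.6% of all genes tested. Btla and Cd160 had under 10 counts in at least 1 vehicle-treated library and passed the filter on low counts only with TAK-931-treated libraries, where they were high, so their place in the test favoured a difference. Of the other 6 genes, with at least 10 counts in both vehicle-treated libraries, 4 were higher at an unadjusted p under 0.05, against 10.3% of all such genes. None of the 8 was lower at that p, against 6.55% of all genes. After Benjamini-Hochberg adjustment edgeR called 0 of 13669 genes (0% of those tested), the lowest adjusted p being 0.275 for any gene, while 1579 genes were higher and 896 lower at an unadjusted p under 0.05. DESeq2 called 1411 genes in the same comparison and limma-voom called 0, with 1956 at an unadjusted p under 0.05. DESeq2 called 6 of the 8 (the 6 named first above), where 9.78% of the genes with an adjusted p were called higher. Without Btla and Cd160 this was 4 of 6, against 8.73% of the genes with at least 10 counts in both vehicle-treated libraries. With the replicate number as a block in edgeR 1 of the 8 was called (Lag3), against 1.03% of all genes called higher.

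Library depth was between 16487902 and 19589339 counts, and levels are given as CPM, counts brought to 1 shared library size with factors from the trimmed mean of M values (TMM). The pairs of libraries were unlike in spread: the chi-square per degree of freedom across genes was 7.94 for the vehicle-treated pair and 259 for the TAK-931-treated pair. The plasma cell markers, 10 genes summed, stood at 14090 and 14360 CPM with vehicle, and with TAK-931 at 5822 CPM (TAK-931-1) and 16780 CPM (TAK-931-2). TAK-931-1 therefore held the least plasma cell RNA and, as given below, the most T cell and macrophage RNA, and the fold changes of the 8 genes and the medians of the lists are given with and without it. In whole tumours, fewer cells of a type and less RNA per cell cannot be told apart.

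**Figure D1:**
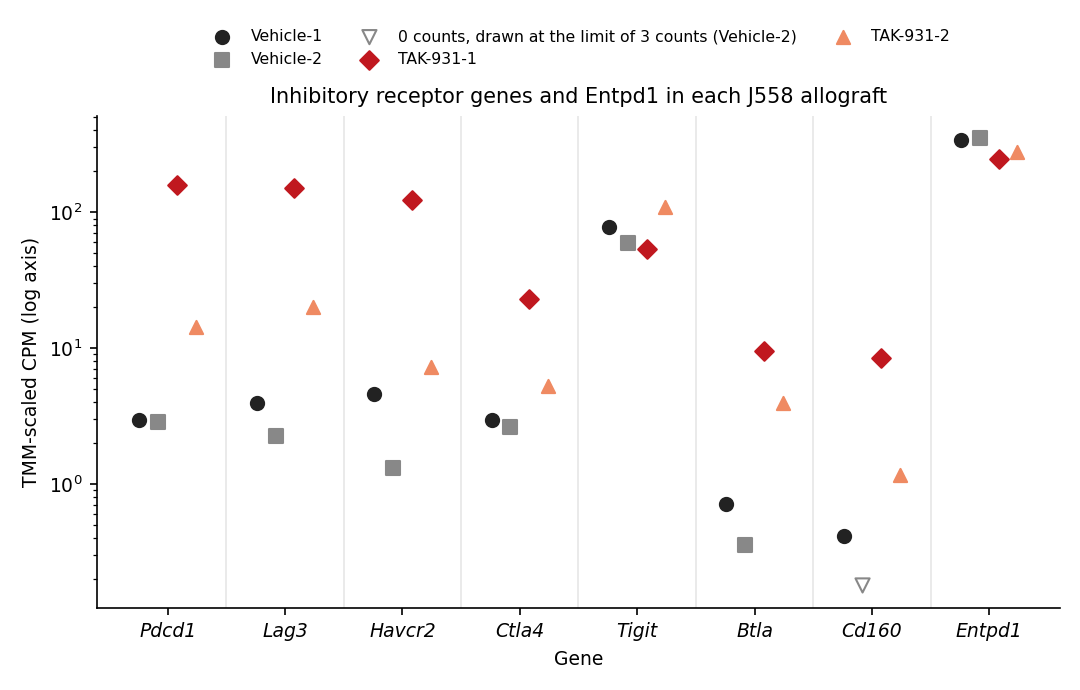
TMM-scaled CPM (log axis) of the 8 genes in each of the 4 libraries, with 1 point per library. The TAK-931-1 point is the highest for 6 genes, Tigit is highest in TAK-931-2, and Entpd1 stays between 248 and 353 CPM throughout. Cd160 had 0 counts in Vehicle-2 and is drawn there at the level of 3 counts, 0.180 CPM.

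Pdcd1 lies on the minus strand of chromosome 1 at 94038305 to 94052553 (mm10), with 1930 bases of exon, and encodes PD-1. Vehicle-treated libraries held 50 and 48 counts of it, or 2.96 and 2.88 CPM, against 3015 (TAK-931-1) and 245 (TAK-931-2), or 159 and 14.3 CPM. The vehicle-treated libraries nearly coincided, and both TAK-931-treated libraries lay above them but 11.1-fold apart from each other. The log2 fold change was 4.89 (SE 1.30), with an unadjusted edgeR p of 0.0173 and an adjusted p of 0.275, and the adjusted p is given for the other genes.

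Ctla4, also on chromosome 1 (plus strand, 60909025 to 60915832, 1933 bases of exon), encodes the CD80 and CD86 receptor that is held at high levels by regulatory T cells. Its levels were 2.96, 2.64, 23.2 and 5.31 CPM in Vehicle-1, Vehicle-2, TAK-931-1 and TAK-931-2. The groups did not overlap, and TAK-931-2 lay much nearer to the vehicle-treated libraries than to TAK-931-1. The log2 fold change of 2.35 (SE 0.84) was the smallest of the 6 genes that exceeded vehicle in both TAK-931-treated libraries (edgeR adjusted p = 0.275).

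Lag3 (chromosome 6, minus strand, 124904359 to 124911705, 2003 bases of exon) encodes a CD4-related receptor for MHC class II. It had 67 and 38 counts with vehicle and 2883 and 345 with TAK-931, which is 3.97, 2.28, 152 and 20.1 CPM. TAK-931-1 was 7.55-fold above TAK-931-2, against 1.74-fold between the libraries from vehicle-treated mice. The log2 fold change was 4.78 (SE 1.16, edgeR adjusted p = 0.275).

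Havcr2 (chromosome 11, plus strand, 46454931 to 46481254, 2724 bases of exon) encodes TIM-3. Its counts were 78 and 22 with vehicle and 2323 and 124 with TAK-931, or 4.62, 1.32, 122 and 7.23 CPM. The vehicle-treated libraries differed 3.51-fold, and TAK-931-2 stood nearer to Vehicle-1 than to TAK-931-1. The log2 fold change was 4.44 (SE 1.58, edgeR adjusted p = 0.275), with 5.59 without Vehicle-1 and 3.77 without Vehicle-2.

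Btla and Cd160 encode the receptors for HVEM and were the least abundant of the 8. Btla (chromosome 16, plus strand, 45224337 to 45252895, 3235 bases of exon) had 12, 6, 180 and 68 counts in Vehicle-1, Vehicle-2, TAK-931-1 and TAK-931-2. These are 0.711, 0.359, 9.48 and 3.96 CPM, which put the TAK-931-treated libraries 17.7-fold and 7.41-fold above the vehicle mean, and the log2 fold change was 3.63 (SE 0.82). Its edgeR adjusted p was 0.275, given here as a description for a gene that entered the test through its high group. TAK-931-1 and TAK-931-2 differed by 2.39-fold, the narrowest gap among the 6 genes that were higher in both. Cd160 (chromosome 3, minus strand, 96798763 to 96829351, 2642 bases of exon) had 7, 0, 160 and 20 counts, which is 0.415, 0, 8.42 and 1.17 CPM. A count of 0 allows up to 3 counts, or 0.180 CPM, in Vehicle-2. Its log2 fold change of 4.48 (SE 1.79) had an unadjusted edgeR p of 0.0617 and an adjusted p of 0.281. It was 3.47 without Vehicle-2. Without Vehicle-1 the vehicle group is at 0 counts, and the fitted value of 9.39 then depends on the prior count and is no bound. In the annotation 68 bases of Cd160 exon overlapped exon of Pdzk1 on the opposite strand, and whether the counting used strand was not stated, so a share of these counts may belong to Pdzk1.

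Tigit (chromosome 16, minus strand, 43648861 to 43664184, 963 bases of exon) encodes a receptor of T cells and NK cells that binds the poliovirus receptor. It had 1308, 993, 1021 and 1863 counts in Vehicle-1, Vehicle-2, TAK-931-1 and TAK-931-2, or 77.5, 59.5, 53.7 and 109 CPM. The highest and the lowest value both came from TAK-931-treated libraries, and the vehicle-treated libraries lay between them. The log2 fold change was 0.24 (SE 0.41, edgeR adjusted p = 0.736), and its direction turned with the library left out: 0.66 without TAK-931-1 and -0.37 without TAK-931-2. In the vehicle-treated libraries, where Tigit was at 77.5 and 59.5 CPM, the T cell receptor chain gene Cd3e was at 1.90 and 0.359 CPM.

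Entpd1 (chromosome 19, plus strand, 40612366 to 40741602, 4379 bases of exon) encodes CD39, found on B cells, regulatory T cells, myeloid cells and endothelium. Its levels were 338 and 353 CPM with vehicle and 248 and 280 CPM with TAK-931. The groups did not overlap, with TAK-931-1 at 71.9% and TAK-931-2 at 81.1% of the vehicle mean. The log2 fold change was -0.39 (SE 0.23, edgeR adjusted p = 0.367). Nt5e, which encodes the enzyme of the next step towards adenosine, was at 15.2, 15.7, 31.1 and 19.5 CPM in Vehicle-1, Vehicle-2, TAK-931-1 and TAK-931-2, with a log2 fold change of 0.71 (SE 0.35, edgeR adjusted p = 0.320).

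The sequence before the start of each gene was read from RefSeq (GRCm38.p6), which held a window for 7 of the 8 genes, all but Lag3, and 9 windows in all, Cd160 and Entpd1 having 2 starts each. Shown are the 250 bases before the start, 5′ to 3′ on the gene's strand, of 3 genes that were higher in both TAK-931-treated allografts (Pdcd1, Ctla4 and Havcr2) and of Tigit, which overlapped. Capitals mark matches, on either strand, to 4 motifs. These were the NFAT core GGAAA, the AP-1 motif TGANTCA, the Runx motif TGTGGT and the interferon-stimulated response element. A match to the NFAT core may overlap one to the interferon-stimulated response element.
Pdcd1, chr1:94052554-94052803, minus strand: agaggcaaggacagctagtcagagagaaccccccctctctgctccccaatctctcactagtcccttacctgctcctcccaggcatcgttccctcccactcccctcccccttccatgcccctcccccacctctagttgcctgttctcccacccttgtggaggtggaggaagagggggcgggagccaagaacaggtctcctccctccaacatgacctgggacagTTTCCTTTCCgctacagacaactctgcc
Ctla4, chr1:60908775-60909024, plus strand: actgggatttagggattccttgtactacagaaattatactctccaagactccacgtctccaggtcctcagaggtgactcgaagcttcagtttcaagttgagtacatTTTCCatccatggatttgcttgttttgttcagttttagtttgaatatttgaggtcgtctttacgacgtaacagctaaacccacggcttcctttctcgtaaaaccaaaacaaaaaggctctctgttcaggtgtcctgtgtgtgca
Havcr2, chr11:46454681-46454930, plus strand: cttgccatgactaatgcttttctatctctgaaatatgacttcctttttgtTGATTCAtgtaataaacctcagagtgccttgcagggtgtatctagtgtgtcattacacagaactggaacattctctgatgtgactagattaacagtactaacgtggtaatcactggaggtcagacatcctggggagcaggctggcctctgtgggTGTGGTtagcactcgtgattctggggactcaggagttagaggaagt
Tigit, chr16:43664185-43664434, minus strand: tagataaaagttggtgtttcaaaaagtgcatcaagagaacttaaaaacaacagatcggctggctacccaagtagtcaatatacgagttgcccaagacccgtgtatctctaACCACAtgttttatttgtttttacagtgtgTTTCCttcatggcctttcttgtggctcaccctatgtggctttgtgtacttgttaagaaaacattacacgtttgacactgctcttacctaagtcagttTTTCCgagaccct

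Counted back from the start site, where -1 is the base just before it, Pdcd1 had the NFAT core from -28 and again from -23, in adjoining copies, and Ctla4 had it from -144. Havcr2 had the AP-1 motif from -200 and the Runx motif from -46. Tigit had the NFAT core from -110 and from -13 and the Runx motif from -140. Of the 9 windows 5 held the NFAT core, against 55.6% of 32851 mouse promoter windows of the same length, 5 held the Runx motif (14.0% of all windows), 1 held the AP-1 motif (6.75%) and 0 held the interferon-stimulated response element (2.98%). The Runx matches fell in both Cd160 windows and in those of Havcr2, Tigit and Btla, so they did not separate Tigit from the genes that were higher in both. A match is a description of the letters and says nothing of whether a factor was bound.

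**Figure D2:**
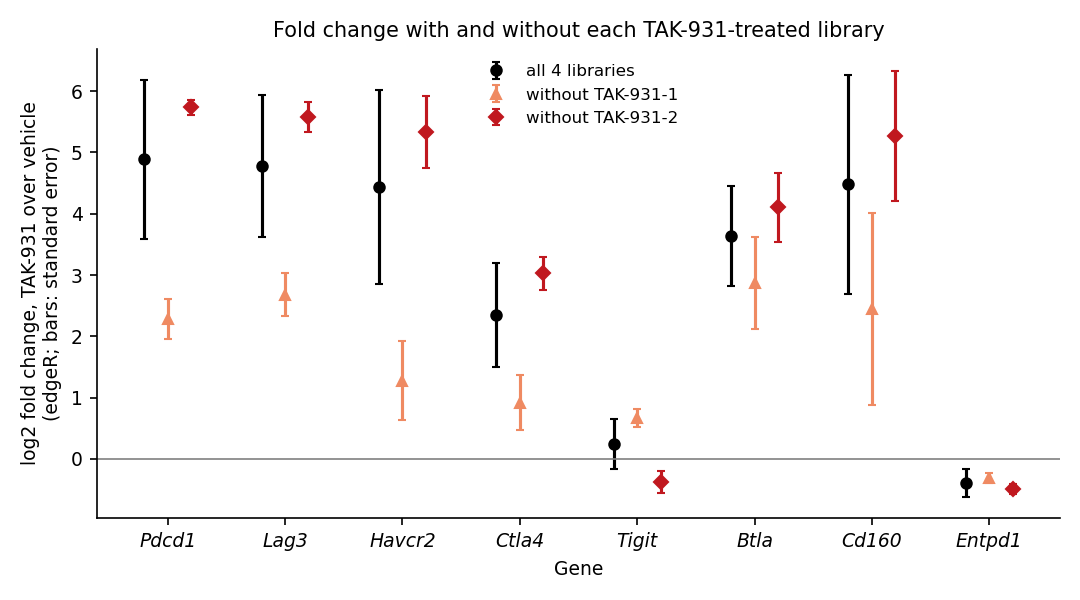
Log2 fold change of TAK-931 over vehicle (y axis, edgeR, bars show the standard error) for the 8 genes, with all 4 libraries and without either TAK-931-treated library. Pdcd1 was at 4.89 with all libraries, 2.29 without TAK-931-1 and 5.74 without TAK-931-2, Tigit changed sign, and Entpd1 stayed between -0.50 and -0.30.

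The fold changes of the 6 genes above vehicle in both TAK-931-treated libraries rested in size on TAK-931-1. Without it the log2 fold change was 2.29 for Pdcd1, 2.68 for Lag3, 1.28 for Havcr2, 0.92 for Ctla4, 2.87 for Btla and 2.44 for Cd160, all still above 0. In that fit 5 of the 8 genes passed an adjusted p of 0.05 (Pdcd1, Lag3, Tigit and Btla higher, Entpd1 lower), against 28.7% of all genes. Havcr2 had an adjusted p of 0.186 there, Ctla4 0.161 and Cd160 0.282. Without TAK-931-2 the genes past an adjusted p of 0.05 were 7 of 8, all but Tigit, against 58.1% of all genes. Their log2 fold changes included 5.74 for Pdcd1, 5.58 for Lag3, 5.33 for Havcr2, 3.03 for Ctla4, 4.10 for Btla and 5.27 for Cd160. These fits take the spread from the vehicle-treated pair alone and assume that the lone TAK-931-treated library varies like that pair.

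Per kilobase of exon, the scale on which levels of different genes can be compared, Entpd1 and Tigit were far above the rest in vehicle-treated allografts. Entpd1 had a mean of 78.9 CPM per kb (77.2 and 80.5) and Tigit a mean of 71.1 CPM per kb (61.8 and 80.5), and their ranges overlapped. Lag3 at 1.56, Pdcd1 at 1.51, Ctla4 at 1.45 and Havcr2 at 1.09 CPM per kb followed, each overlapping the next, and then Btla at 0.165 and Cd160 at 0.0785 CPM per kb, which overlapped too. Of the genes with at least 1 count in Vehicle-1, 92.6% had a lower level per kb than Tigit and 31.9% a lower level than Pdcd1. In TAK-931-treated allografts the mean order was Tigit (84.3 CPM per kb), Entpd1 (60.4), Pdcd1 (44.8), Lag3 (42.9), Havcr2 (23.8), Ctla4 (7.38), Btla (2.08) and Cd160 (1.82), and no neighbours in that order were separated by their 2 values. In TAK-931-1 alone Pdcd1 reached 82.2 CPM per kb, above Tigit at 55.8 and Entpd1 at 56.7, whereas in TAK-931-2 Pdcd1 was at 7.40, Tigit at 113 and Entpd1 at 64.0 CPM per kb.

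The make-up of the group differed accordingly between libraries. Pdcd1, Lag3, Havcr2, Ctla4, Btla and Cd160 together made up 4.32% and 3.12% of the summed CPM per kb of the 8 genes with vehicle. They made up 66.3% of it in TAK-931-1 and 12.2% in TAK-931-2. The sum itself was 165, 147, 334 and 201 CPM per kb in the same order. Both TAK-931-treated libraries exceeded both vehicle-treated libraries in each measure, with TAK-931-2 nearer to vehicle.

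**Figure D3:**
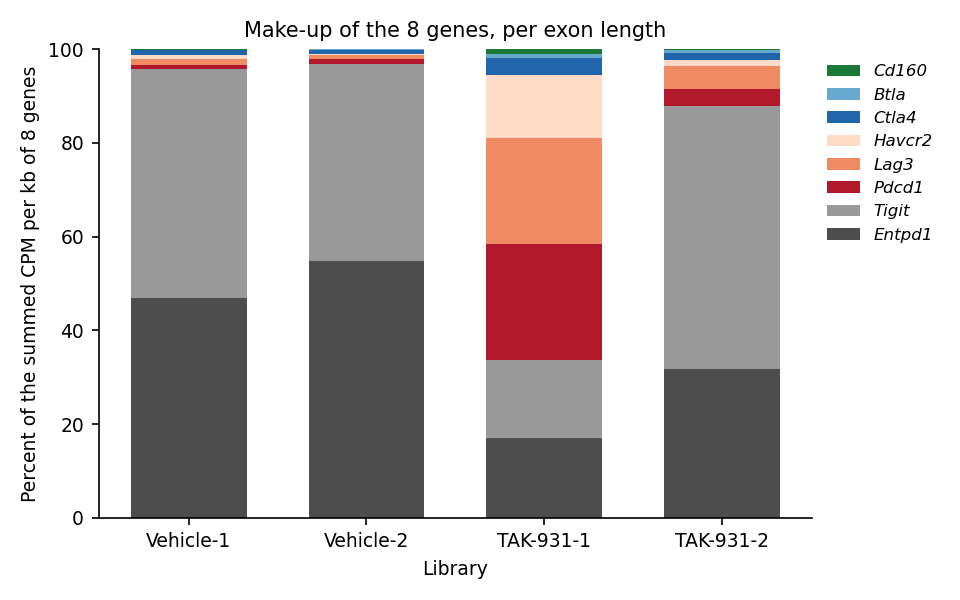
Percent of the summed CPM per kb of the 8 genes (y axis) taken by each gene in each library, as stacked bars that reach 100%. Tigit and Entpd1 (grey) fill nearly the whole bar in both vehicle-treated libraries, where the other 6 genes make up 4.32% and 3.12%, and the smaller part of it in TAK-931-1, where they make up 66.3%.

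The libraries stood in the same order, from high to low TAK-931-1, TAK-931-2, Vehicle-1 and Vehicle-2, for Pdcd1, Lag3, Havcr2, Ctla4, Btla and Cd160, an order found in 12.7% of all genes tested. Of 16 T cell markers tested, 11 had this order, as had 8 of 10 NK cell markers and 11 of 14 macrophage and monocyte markers. It was found in 5 of 10 dendritic cell, 2 of 6 regulatory T cell, 2 of 11 endothelial, 1 of 6 B cell, 0 of 10 fibroblast and 0 of 10 plasma cell markers. Tigit was highest in TAK-931-2 and lowest in TAK-931-1, a pattern of 9.91% of all genes, shared by 5 of 10 plasma cell markers, 2 of 6 B cell markers and none of the markers tested of the other 7 cell types. Entpd1 ran from Vehicle-2 through Vehicle-1 and TAK-931-2 down to TAK-931-1.

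The genes with profiles most like each of the 8 were taken as the 3 at the smallest Euclidean distance between centred log2 CPM over the 4 libraries, among tested genes with a mean log2 CPM over 0. With 4 points the likeness is a description only. Pdcd1 was nearest to Camk4 (distance 0.339), a calcium-dependent kinase of T cells, then to Atp8b4 and Stk26. Lag3 was nearest to Ikzf2 (0.199), which encodes Helios, then to Foxp3 (0.335), the defining transcription factor of regulatory T cells, and Cst7 (0.356). Foxp3 itself had 0.415, 0.120, 15.5 and 1.87 CPM in Vehicle-1, Vehicle-2, TAK-931-1 and TAK-931-2. Havcr2 was nearest to Serpinb9b (0.557), then to Ubash3a and Cd5, both of which encode negative regulators of T cell receptor signalling.

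Ctla4 was nearest to Pdzrn3 (0.0866), Ppm1h and Slc6a6, Btla to Slfn1 (0.102), Zfp366 and Slfn2, and Cd160 to Ly6a (0.241), Hk3 and Gfod1. The nearest genes to Tigit were D130020L05Rik (0.0279), Gm15760 and Trak2 (0.0906), the last of which carries mitochondria along microtubules. Entpd1 was nearest to Sdhaf4 (0.0130), Sord (0.0154) and Stard7 (0.0239), which encode a succinate dehydrogenase assembly factor, sorbitol dehydrogenase and a phosphatidylcholine carrier. Among the 8 themselves the closest pair was Pdcd1 and Lag3, at a distance of 0.671, and Tigit was closer to Entpd1 (0.873) than to any of the other 6 (2.84 or more).

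To set the receptors beside the amount of T cell RNA, counts were divided within each library by the summed counts of Cd3d, Cd3e and Cd3g, which encode the CD3 chains of the T cell receptor complex. That sum was 88, 28, 8370 and 427 counts in Vehicle-1, Vehicle-2, TAK-931-1 and TAK-931-2, so the ratios of the vehicle-treated libraries rest on few counts. Against this sum 95.8% of all genes tested had a lower ratio in both TAK-931-treated libraries and 0.256% a higher one. None of the 8 genes had a higher ratio in both, 4 had a lower one (Havcr2, Ctla4, Tigit and Entpd1), and 4 overlapped. With 2 libraries against 2 the smallest two-sided p that an exact permutation test can give is 0.333, and no p is given.

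Per 100 CD3 counts, Pdcd1 had 56.8 counts in Vehicle-1, with an exact 95% interval of 39.3 to 81.3, and 171 in Vehicle-2, with an interval of 105 to 284. TAK-931-1 had 36.0 (34.5 to 37.6) and TAK-931-2 had 57.4 (48.8 to 67.3). The vehicle-treated libraries were thus further apart than Vehicle-1 and TAK-931-2, which nearly coincided. Lag3 gave 76.1, 136, 34.4 and 80.8 per 100 CD3 counts in the same order of libraries, again with TAK-931-2 between the vehicle-treated libraries. Havcr2 was at 88.6 and 78.6 with vehicle against 27.7 and 29.0 with TAK-931, the one gene for which both pairs lay close together. Ctla4 was at 56.8 and 157 with vehicle and at 5.27 and 21.3 with TAK-931, 8.05-fold lower by the means.

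Btla was at 13.6, 21.4, 2.15 and 15.9 per 100 CD3 counts, and the interval of each vehicle-treated library (6.79 to 25.0 and 7.25 to 52.8) held the value of TAK-931-2. Cd160 was at 7.95, 0, 1.91 and 4.68. Tigit was at 1486 and 3546 with vehicle and at 12.2 (TAK-931-1) and 436 (TAK-931-2) with TAK-931, and Entpd1 was at 6486, 21020, 56.4 and 1126. Intervals cover counting error only, and since small counts in these tables were mostly even, mates of a read pair appear to have been counted singly and the intervals are too narrow.

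**Figure D4:**
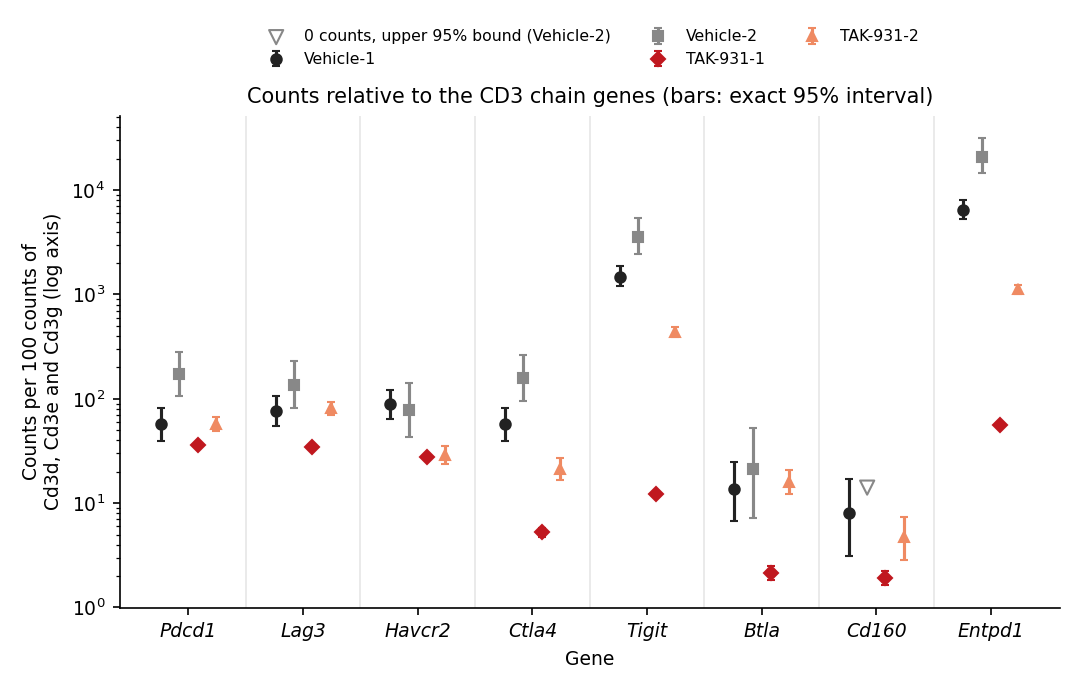
Counts of each of the 8 genes per 100 summed counts of Cd3d, Cd3e and Cd3g (log axis) in each library, with exact 95% intervals that cover counting error only. Both TAK-931-treated libraries lie below both vehicle-treated libraries for Havcr2, Ctla4, Tigit and Entpd1, and Cd160 in Vehicle-2 (0 counts) is drawn at its upper bound of 14.1.

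The count of genes with a higher ratio depended on the denominator. Against the summed counts of Cd8a, Cd8b1 and Cd4 it was again 0 higher and 4 lower, the same 4 genes as against CD3, where 0.263% of all genes tested were higher and 94.4% lower. Against Ptprc, which encodes the pan-leukocyte protein CD45, 1 gene was higher (Lag3) and 3 were lower (Ctla4, Tigit and Entpd1), against 0.907% and 92.1% of all genes. Against the plasma cell genes Sdc1, Xbp1, Mzb1 and Jchain, a denominator added after the data were examined, 7 of the 8 were higher and Entpd1 overlapped, against 21.3% of all genes higher and 14.5% lower. The sums of all these denominators differed between the libraries, so the counts describe the 8 genes and the denominators together. On that scale Tigit ran at 1.02, 0.724, 1.33 and 1.04 counts per 100 and Entpd1 at 4.43, 4.29, 6.15 and 2.68.

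Markers of other cells differed between the libraries together with the receptors. The 16 T cell markers tested had a median log2 fold change of 5.11, and of 2.15 without TAK-931-1, 4.46 without Vehicle-2 and 6.11 without Vehicle-1. Of the 16, 8 had under 10 counts in a vehicle-treated library and entered the test only with TAK-931-treated ones, and with at least 10 counts required in every library the median was 3.83. Both TAK-931-treated libraries exceeded vehicle for 15 of them, and 14 were higher at an unadjusted p under 0.05, of which 6 were among the 8 genes with at least 10 counts in both vehicle-treated libraries. Summed over the list they stood at 111 and 110.6 CPM with vehicle and at 2163 CPM (TAK-931-1) and 215 CPM (TAK-931-2) with TAK-931, and Trat1 was at 0 in both vehicle-treated libraries. Cd3d had 0.711, 1.20, 91.8 and 4.31 CPM in Vehicle-1, Vehicle-2, TAK-931-1 and TAK-931-2, and Cd3g had 2.61, 0.120, 213 and 12.9 CPM. Thy1, Cd3g and Cd2 were the T cell markers with the highest level per kb. With vehicle Thy1 was already at 38.0 and 54.9 CPM and Cd2 at 14.9 and 10.9 CPM, so the vehicle sums follow such genes more than the CD3 genes. Thy1 is also on the fibroblast list and counts in the results of both lists.

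Of 10 NK cell markers tested 9 exceeded vehicle in both TAK-931-treated libraries (5 at an unadjusted p under 0.05, of which 3 were among the 5 with at least 10 counts in both vehicle-treated libraries, median log2 fold change 3.59, or 2.55 without TAK-931-1 and 5.56 without Vehicle-1), led in level per kb by the granule genes Gzma and Prf1 and by Klrd1. The sum was 55.4, 26.2, 600 and 130 CPM, and the list shares a gene with the exhaustion transcription factors. Ncr1 had 2.73, 0.359, 11.3 and 8.69 CPM. Its TAK-931-treated libraries were 1.30-fold apart, against 3.05-fold for Gzma, 7.37-fold for Prf1 and 10.4-fold for Klrd1. Klra8 and Klra4 were at 0 in every library, and whether BALB/c mice carry these genes was not examined. Of 14 macrophage and monocyte markers 13 were higher in both (13 at an unadjusted p under 0.05, median 3.17, or 1.52 without TAK-931-1), with Lyz2, C1qa and C1qb the most abundant, and the sum ran 710, 585, 9952 and 1824 CPM. Their part in the levels of Havcr2, Entpd1 and the other receptors was not tested.

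Of 6 regulatory T cell markers tested 4 were higher in both and 1, Il10, was lower in both. At an unadjusted p under 0.05 3 were higher, of which 1 was among the 3 with at least 10 counts in both vehicle-treated libraries. The median was 1.79, or 0.71 without TAK-931-1 and 3.16 without TAK-931-2. Il10 (19.3, 18.6, 8.11 and 18.5 CPM), Tnfrsf18 and Lrrc32 were the most abundant, and the sum was 30.9, 32.7, 114 and 42.7 CPM. Dendritic cell markers, led by Fscn1, Itgax and Batf3, were higher in 9 of 10 (4 at that p, median 2.03, or 1.14 without TAK-931-1, sum 70.6, 69.8, 468 and 118 CPM). Fibroblast markers, led by Col1a1, Col1a2 and Col3a1, were higher in 9 of 10 (8 at that p, median 2.49, or 1.10 without TAK-931-1, sum 1966, 2257, 15800 and 5345 CPM). Endothelial markers, led by Pecam1, Cdh5 and Esam, were higher in 4 of 11 (3 at that p, median 1.22, or -0.16 without TAK-931-1 and 2.01 without TAK-931-2, sum 327, 363, 1252 and 357 CPM).

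Plasma cell markers, led by Jchain, Pou2af1 and Mzb1, were higher in 1 and lower in 4 of 10, with none at an unadjusted p under 0.05 in either direction and a median of -0.38, which became 0.23 without TAK-931-1 and -1.43 without TAK-931-2. B cell markers were higher in 2 and lower in 1 of 6, with 1 at that p, a median of 1.16 (0.49 without TAK-931-2 and 1.27 without TAK-931-1) and a sum of 206, 248, 137 and 249 CPM. Pax5 was at 0 in every library, while Cd79b, Ms4a1 and Fcmr led the list. Over all genes tested the median log2 fold change was 0.02, and that of the 8 checkpoint genes was 4.04. That median includes Btla and Cd160, which passed the filter only with TAK-931-treated libraries, where they were high. The other 6 genes stood at 4.89 (Pdcd1), 4.78 (Lag3), 4.44 (Havcr2), 2.35 (Ctla4), 0.245 (Tigit) and -0.39 (Entpd1). Taken library by library against the vehicle mean, the 8 genes, again with Btla and Cd160, had a median log2 ratio of 4.53 (TAK-931-1) and 1.87 (TAK-931-2).

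Of 12 genes tested on a list of ligands of the receptors, 9 exceeded vehicle in both TAK-931-treated libraries and 1 was below it in both, with 7 higher and 1 lower at an unadjusted p under 0.05 and a median log2 fold change of 1.60, or 0.85 without TAK-931-1. Of the 7, 6 were among the 11 genes with at least 10 counts in both vehicle-treated libraries. The 3 with the highest level per kb were Lgals3, a galectin that binds LAG-3, Hmgb1, a nuclear protein bound by TIM-3, and Cd48. Lgals3 was at 34.8, 29.7, 761 and 78.8 CPM in Vehicle-1, Vehicle-2, TAK-931-1 and TAK-931-2, and Hmgb1 at 463, 428, 234 and 256 CPM (log2 fold change -0.86, SE 0.23, edgeR adjusted p = 0.275). Cd48 was at 40.6, 32.2, 116 and 49.6 CPM.

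The direct partners of PD-1, HVEM receptors and TIGIT were picked out after their values were seen. Cd274, which encodes PD-L1, was at 72.9, 78.1, 198 and 134 CPM (log2 fold change 1.14, SE 0.28), and Pdcd1lg2, which encodes PD-L2, at 0.296, 0.359, 26.2 and 4.37 CPM (5.51, SE 1.16). Tnfrsf14 was at 4.80, 3.11, 42.6 and 12.3 CPM (2.79, SE 0.75). Pvr, the poliovirus receptor bound by TIGIT, was at 19.9, 21.8, 18.4 and 21.3 CPM and overlapped between the groups (-0.07, SE 0.28). The edgeR adjusted p was 0.275 for Cd274, Pdcd1lg2 and Tnfrsf14 and 0.889 for Pvr. Pdcd1lg2 had 5 and 6 counts with vehicle and entered the test only with TAK-931-treated libraries, so its values are a description. Fgl1, a ligand of LAG-3, had no counts except in TAK-931-1, at 0.0526 CPM, under the level of 3 counts.

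Of 16 other inhibitory receptor genes tested 14 exceeded vehicle in both TAK-931-treated libraries, 7 had an unadjusted p under 0.05 and all 7 were higher, and the median log2 fold change was 2.56, or 0.67 without TAK-931-1. Of these, 5 had under 10 counts in a vehicle-treated library, entered the test only with TAK-931-treated ones and were all among the 7, so that 2 of the remaining 11 were higher at that p. The most abundant per kb were Lilrb4a, a receptor of myeloid cells, at 10.0, 6.83, 195 and 35.7 CPM in Vehicle-1, Vehicle-2, TAK-931-1 and TAK-931-2, the gene listed as 4632428N05Rik (VISTA) at 109, 100.4, 310 and 98.1 CPM, and the adenosine receptor gene Adora2a at 21.1, 23.9, 48.5 and 29.9 CPM. Lilrb4a had a log2 fold change of 3.77 (SE 0.94, edgeR adjusted p = 0.275), and VISTA overlapped between the groups. Of the costimulatory receptor genes 9 of 10 were higher in both and 6 were higher at an unadjusted p under 0.05, with a median of 3.07, or 1.27 without TAK-931-1 and 2.23 without Vehicle-2. Here 4 of the 6 entered the test in that way, and 2 of the 6 genes with at least 10 counts in both vehicle-treated libraries were higher at that p. Cd28, the most abundant of them per kb and the receptor with which CTLA-4 competes, was at 37.5, 38.1, 70.6 and 66.3 CPM (log2 fold change 0.86, SE 0.20, edgeR adjusted p = 0.275), so that, unlike Ctla4, its TAK-931-treated libraries were close together. Tnfrsf18 and Cd27 followed it in level per kb.

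Of 18 genes on the list of transcription factors linked to exhaustion 14 exceeded vehicle in both TAK-931-treated libraries and 1 was below it in both, 11 were higher at an unadjusted p under 0.05, and the median log2 fold change was 2.66, or 1.53 without TAK-931-1. Of the 11, 3 had under 10 counts in a vehicle-treated library, and 8 were among the 15 genes with at least 10 in both. The 3 most abundant per kb, Irf4, Id2 and Prdm1, are not particular to T cells, and Irf4 and Prdm1 are also on the plasma cell list. Irf4 was at 737, 761, 298 and 1669 CPM, and Prdm1 at 172, 166, 89.5 and 222 CPM, both highest in TAK-931-2 and lowest in TAK-931-1, as Tigit was. Id2 was at 12.6, 6.17, 202 and 42.1 CPM (log2 fold change 3.70, SE 0.93, edgeR adjusted p = 0.275).

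The signalling partners, the phosphatases, kinases and adaptors that act below these receptors, were higher in both for 13 of 17 and lower for 2, with 8 higher and 0 lower at an unadjusted p under 0.05 and a median of 1.02, or 0.65 without TAK-931-1. Of the 8, 7 were among the 15 with at least 10 counts in both vehicle-treated libraries. Ptpn6, which encodes SHP-1, was at 276, 290, 449 and 445 CPM in Vehicle-1, Vehicle-2, TAK-931-1 and TAK-931-2 (log2 fold change 0.66, SE 0.22, edgeR adjusted p = 0.275), with both pairs of libraries close together. Csk, a kinase that holds back Lck, was at 393, 405, 276 and 350 CPM (-0.35, SE 0.25, edgeR adjusted p = 0.428), and the adaptor gene Lax1 was at 718, 789, 368 and 962 CPM, with overlap between the groups.

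**Figure D5:**
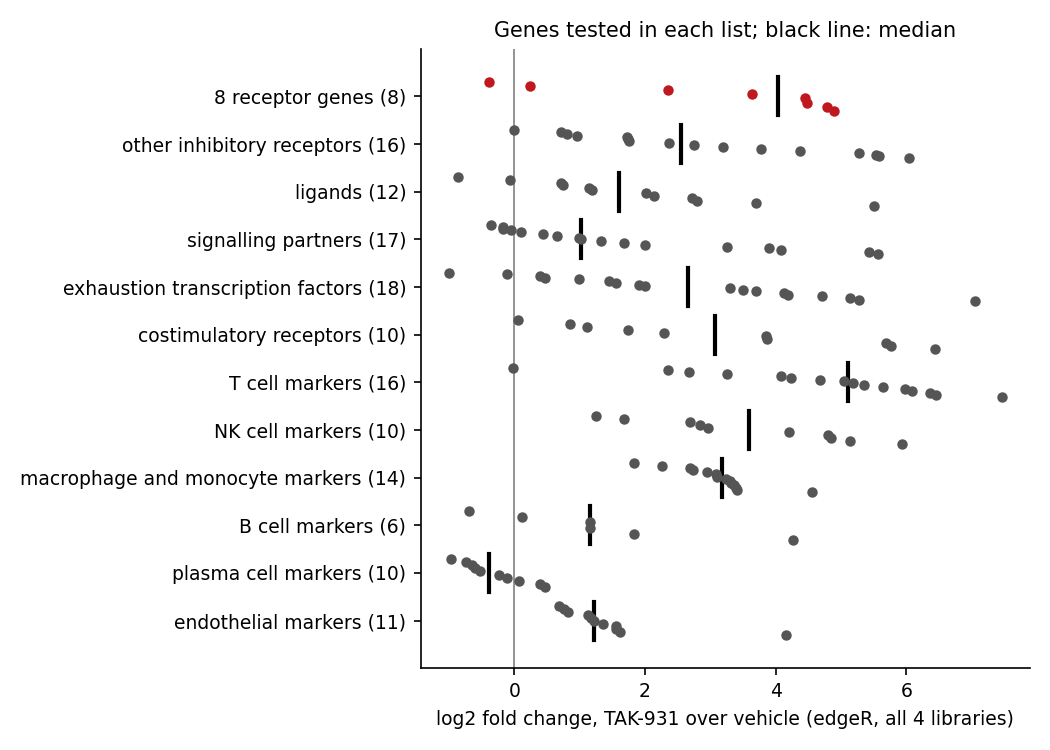
Log2 fold change of TAK-931 over vehicle (x axis, edgeR with all 4 libraries) of each tested gene in the 8 checkpoint genes and 11 lists (y axis, number of genes in parentheses), with 1 point per gene and the median as a black line. The median is 4.04 for the 8 checkpoint genes, 5.11 for T cell markers, 3.17 for macrophage and monocyte markers and -0.38 for plasma cell markers, and Tigit (0.24) and Entpd1 (-0.39) lie near 0. The medians of the checkpoint genes and of the T cell markers include genes that passed the filter only with TAK-931-treated libraries.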

How the data were processed

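RNA was sequenced from 4 J558 allografts. The authors deposited 1 table of raw read counts per gene for each library, made with featureCounts; STAR 2.6.1c and mm10 are named in the submitters' processing notes, and the annotation and strand setting are not given in the sources used here. Each deposited table also holds another kind of number, the exon length of a gene in bases. Odd values made up 17.9% to 23.9% of counts between 1 and 20, so mates appear to be counted singly.

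Genes were kept with filterByExpr (minimum count of 10), scaled by TMM and compared by the robust quasi-likelihood test of edgeR 4.0.16 (R 4.3.3), two-sided, treatment as the only term, with Benjamini-Hochberg adjustment at 0.05 over 13669 genes. Log2 CPM used a prior count of 2. Groups were taken from the sample labels, which name no batch. The names of the deposited count columns carry 1 letter that Vehicle-1 shares with TAK-931-1 and another that Vehicle-2 shares with TAK-931-2, whose meaning is not given in the sources used here.

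The members and lists were chosen with earlier results of these data known. Besides the 8 genes, the text names the 3 most abundant genes per kilobase of each list, the 3 nearest genes to each member, and Cd3d, Cd3e, Cd3g, Foxp3 and Nt5e. Outside this rule, chosen after their values were seen, it names the ligand genes Cd274, Pdcd1lg2, Tnfrsf14, Pvr and Fgl1, the NK cell marker Ncr1, and Trat1, Klra8, Klra4 and Pax5 for counts of 0. Of the list genes 3 were matched by a synonym, and Pvrig and Nectin2 were not analysed here. Other settings tried were DESeq2 1.42.0, limma-voom (limma 3.58.1), edgeR with halved counts or without robust estimation, scaling by library size or by median-of-ratios factors, no filter or a filter of 10 counts in all libraries, the replicate number as a block, omission of single libraries, and other ratio denominators. T-cell receptor constant and immunoglobulin chain genes were not analysed here, and 1 T cell marker and 1 ratio denominator that were planned are not reported here.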

Additional observations from a re-analysis of the deposited data

How the results depend on the processing

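With all 4 libraries edgeR called 0 genes, the replicate block called 144 genes, DESeq2 called 1411, and leaving out 1 library in turn gave between 0 and 8424 (3996 without TAK-931-1, 8424 without TAK-931-2). Labels share replicate numbers, and the letters in the column names pair the same libraries. Deviations of same-numbered libraries correlated at 0.0041 across genes. That value cannot decide whether the mice were paired, because the groups differ much in spread. Their chi-square per degree of freedom was 7.94 (vehicle) and 259 (TAK-931). For Pdcd1, Lag3, Havcr2, Ctla4, Btla and Cd160 the library numbered 1 was the higher in both groups. The main fit left the numbers out, and a pairing was not tested. In the edgeR block fit 1 of the 8 genes passed the adjusted threshold (Lag3, log2 fold change 4.23, adjusted p = 0.0372, against 1.03% of all genes higher). There Havcr2 had an adjusted p of 0.0531 and Pdcd1 of 0.0904. The number of the 8 genes at an unadjusted p under 0.05 was 5 in edgeR with all libraries. With limma-voom it was 1 (Btla), against 14.3% of all genes. Btla passed the filter only with TAK-931-treated libraries, where it was high. Pdcd1, Lag3, Havcr2 and Ctla4, which were under that p in edgeR, were not under it with limma-voom. No such count is given here for fits that leave 1 library in a group. The number above both vehicle-treated libraries was 6 with all libraries, against 30% of all genes tested. When 1 library was left out it was between 6 and 7. Fewer values then have to be separated, so the criterion is easier, and the share of all genes is not given for it. The number with a higher ratio to CD3 counts was 0, against 0.256% of all genes. It was between 0 and 1 when 1 library was left out, where no share of all genes is given. With other denominators it was 1 (Ptprc, against 0.907% of all genes) and 7 (plasma cell genes, against 21.3%). Tigit reversed, to -0.37 without TAK-931-2 (0.66 without TAK-931-1). Each of the other 7 genes kept its direction under every alternative in which it was tested; Btla and Cd160 could not be tested with at least 10 counts in every library. The cause of these changes was not tested, apart from the fewer libraries in the fits that leave one out. With at least 10 counts in every library the median log2 fold change was 1.82 for costimulatory receptors (1.97 without a filter), 1.82 for other inhibitory receptors, 2.0 for exhaustion transcription factors and 1.20 for regulatory T cell markers (2.42 without a filter). Cd160 and Btla had 0 to 12 counts with vehicle and the CD3 chain genes together 88 and 28, so their ratios and folds rest on few counts.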
